A study of Rattus norvegicus with 10 samples.

Results

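Mdm2, Cdkn1a, Ccng1, Sesn1, Aen, Bax, Bbc3 and Perp are target genes of the transcription factor p53, and their RNA was followed in RPE-J cells, a rat retinal pigment epithelial line transformed with SV40. The 8 genes were taken by name from the deposited tables, which list 14119 genes. Of the 8, 7 were listed, and each of the 7 had a mean level of at least 50 normalised reads. Bbc3, which encodes the apoptosis activator PUMA, was not listed and is not analysed here.

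RPE-J cells from the Long-Evans strain, at passages 4 to 6, were grown at 33 °C and collected with trypsin, and polyA RNA was sequenced from 1 library per condition. The α7 nicotinic receptor agonist PNU-282987 (PNU) was given at 100 nM for 30 min, 1 h, 3 h, 8 h or 12 h. Nicotine, the positive control for receptor activation, was given at 1 µM for 1 h or 12 h, and MLA, the negative control, at 100 nM for 1 h or 12 h. The vehicle DMSO was given for 12 h, and no vehicle library of another time was used here. All conditions carry the same SV40 transformation, no untransformed cells were among the samples, and all libraries come from 1 cell line.

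p53 is held at a low level in unstressed cells by MDM2, a ubiquitin ligase that marks p53 for degradation and whose gene p53 itself switches on, which closes a feedback loop. After DNA damage or oncogenic stress p53 is stabilised and raises genes that stop the cell cycle, repair damage or start apoptosis. The large T antigen of SV40 binds p53 and blocks its action on target genes, and RPE-J was made with a temperature-sensitive form of that virus. These tables hold RNA levels only, so neither p53 protein nor T antigen was measured.

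In promoters, p53 binds a pair of adjoining decamers. Promoter windows from RefSeq, assembly GRCr8, run from 250 bases before to 50 bases after each gene's start, and 6 of the 8 genes had one. The p53 decamer (its name is given in place of its letters, since it holds ambiguity codes; it reads the same on both strands) was found in 4 of these 6 windows and in 7.98% of all 33469 windows. A decamer with a second one directly beside it, read with at most 2 mismatches, was found in 3 of the 6 and in 0.454% of all windows. The 4 stretches below are shown because they hold the matches, in capitals, 5′ to 3′ on the strand of the gene. For Cdkn1a (chr20:7150711-7150770, plus strand), Ccng1 (chr10:25685079-25685126, minus strand) and Aen (chr1:142224483-142224532, plus strand) the capitals mark both decamers, and for Sesn1 (chr20:46948527-46948576, plus strand) a lone one.
Cdkn1a: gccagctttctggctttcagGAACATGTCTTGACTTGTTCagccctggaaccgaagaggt
Ccng1: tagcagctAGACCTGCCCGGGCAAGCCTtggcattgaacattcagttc
Aen: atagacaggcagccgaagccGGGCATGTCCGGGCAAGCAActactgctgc
Sesn1: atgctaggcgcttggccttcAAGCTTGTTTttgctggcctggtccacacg
The capitals begin 201 bases before the start in Cdkn1a, 242 in Ccng1, 30 in Aen and 172 in Sesn1. These letters were not found in the windows of Mdm2 and Perp. Sequence outside the windows was not searched, and decamers with bases between them were not read as pairs. A site elsewhere in either gene would therefore be missed. Among the 38 windows of other p53 targets on the fixed list, 5 held the decamer (Ei24, Gadd45a, Gtse1, Pidd1 and Pml) and 1 a pair, that of Gtse1, a G2 and S phase protein that binds p53. A match is a description of the sequence and not of binding. The windows were searched with the levels below already known.

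Levels are read numbers divided by 1 size factor per library, set over all 10 libraries together. Reads in listed genes ran from 15220638 in PNU 8 h to 31510333 in MLA 12 h. Levels are not divided by gene length, so they are compared between libraries and not between genes. With 1 library per condition there was no spread between replicates and no test between conditions. The 95% intervals given (exact Poisson for a level, exact binomial for a difference) cover counting error only. The PNU 12 h columns were matched by elimination, as the library number that no other condition carries. The nicotine 1 h library stood apart: set against each other library, its median number of genes past 2-fold was 152, while this median was 20 to 52 for the other 9. It was nearest to PNU 3 h and PNU 12 h, with 13 and 15 genes past 2-fold. PNU 3 h had the next highest median at 1.5-fold, 563 genes against 960 for nicotine 1 h. The ranges of the p53 targets are therefore given with and without nicotine 1 h and PNU 3 h. DMSO 12 h and PNU 30 min differed at least 2-fold in 6 genes. Of 18 pigment epithelium markers 9 were listed. Ezr lay at levels of 9718 to 11668, Best1 at 4756 to 7060, Krt8 at 3557 to 4215 and Cdh3 at 3029 to 4521. Lower levels were found for Pmel (479 to 574), Mertk (231 to 314) and Mitf (131 to 180). The lowest were Rdh5 (43.1 to 77.2) and Rlbp1 (12.5 to 30.9). The defining genes Rpe65, Lrat, Tyr, Tyrp1, Dct, Otx2 and Ttr were not listed, and neither were Krt18 and Cdh1. The fibroblast collagens Col1a1 (21518 to 48344) and Col3a1 (8415 to 12674) were listed, and the other 4 of 6 fibroblast markers (Col1a2, Pdgfra, Dcn and Lum) were not. Of 5 immune markers Ptprc lay at 70.8 to 124, Cd68 at 82.9 to 162 and Csf1r at 8.91 to 18.6, and Aif1 and Cd3e were not listed.

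The p53 targets varied over the 10 libraries about as much as other genes. The highest library exceeded the lowest by 2.14-fold for Perp, 1.53-fold for Cdkn1a, 1.53-fold for Mdm2, 1.39-fold for Bax, 1.36-fold for Aen, 1.30-fold for Ccng1 and 1.29-fold for Sesn1. The median of the 7 ranges was 1.39-fold, beside 1.38-fold over the 11188 genes whose mean level reached 50. Ranges of at least 1.5-fold were found for 3 of the 7 genes, against 31.9% of all genes, and of at least 2-fold for 1 of the 7, against 5.97%. Without nicotine 1 h and PNU 3 h the ranges were 1.23-fold for Mdm2, 1.34-fold for Cdkn1a, 1.22-fold for Ccng1, 1.27-fold for Aen, 1.30-fold for Bax and 1.20-fold for Sesn1. Perp had the same 2.14-fold range there, since neither of its extremes lay in those libraries, and 1 of 7 genes passed 1.5-fold, beside 15.7% of all genes. Without DMSO 12 h the range of Perp was 1.69-fold, so that 0 of 7 passed 2-fold, beside 5.48% of all genes.

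**Figure D1:**
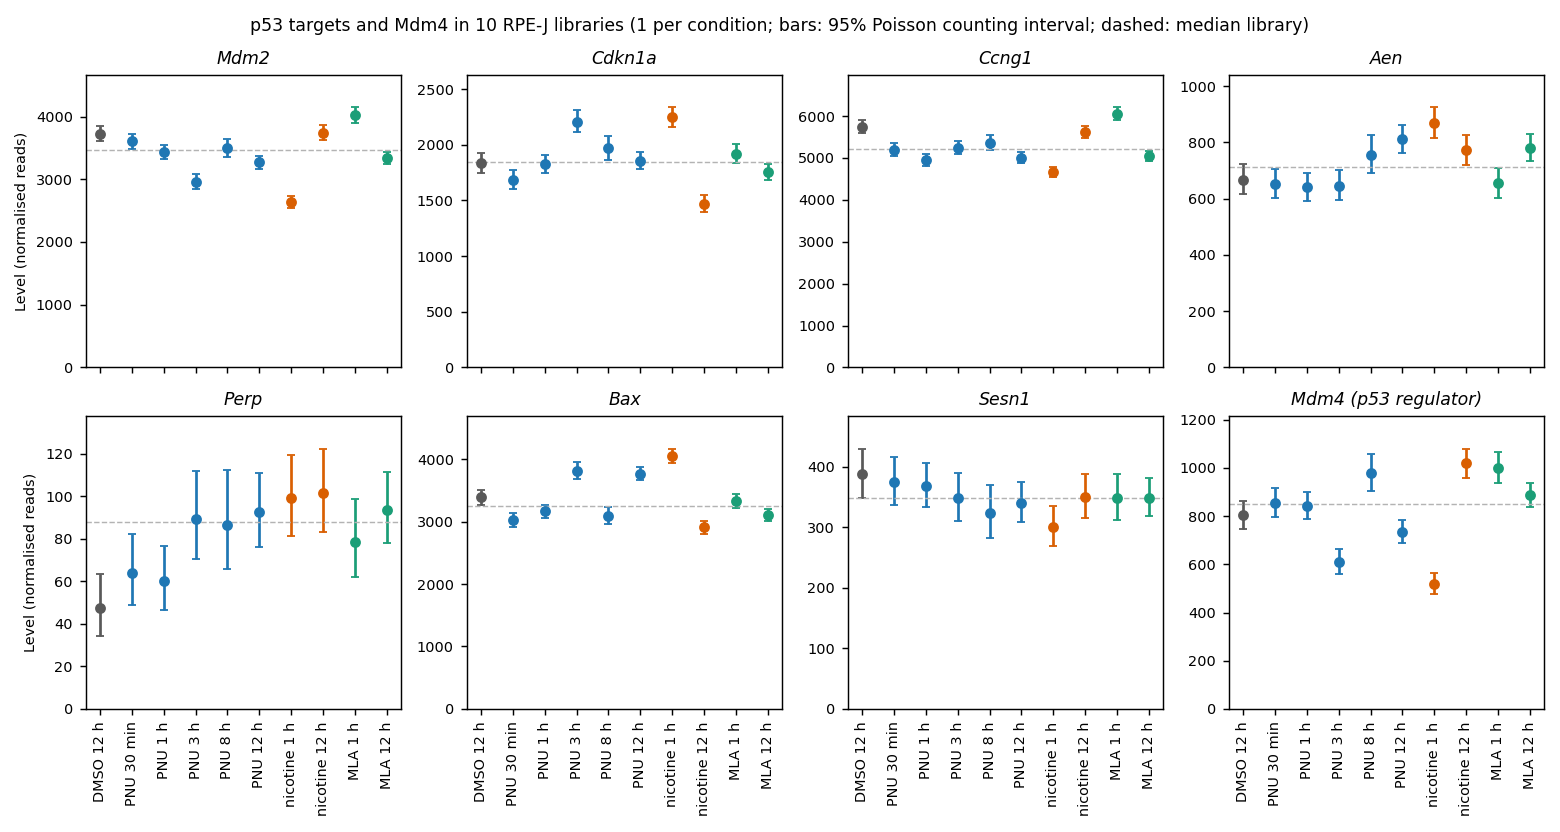
Level of each listed p53 target and of Mdm4 (vertical axis, normalised reads) in each of the 10 libraries (horizontal axis). Points are single libraries, bars are 95% Poisson counting intervals and the dashed line is the median library; nicotine 1 h and PNU 3 h lie at the edge of the range for Mdm2, Cdkn1a, Bax and Mdm4, while DMSO 12 h is lowest for Perp.

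Mdm2 encodes the ubiquitin ligase of the feedback loop. Its level was 3727 normalised reads in DMSO 12 h. In the PNU series it was 3604 at 30 min, 3429 at 1 h, 2960 at 3 h, 3495 at 8 h and 3270 at 12 h. It was 2634 in nicotine 1 h, 3742 in nicotine 12 h, 4021 in MLA 1 h and 3336 in MLA 12 h. Nicotine 1 h and PNU 3 h were thus the lowest, MLA 1 h was the highest, and the other 7 libraries lay between 3270 and 3742. In order of level, 3 of the 9 neighbouring pairs had counting intervals apart: nicotine 1 h from PNU 3 h, PNU 3 h from PNU 12 h, and nicotine 12 h from MLA 1 h. Of the 45 pairs of libraries, 1 differed at least 1.5-fold, nicotine 1 h and MLA 1 h.

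Mdm4 encodes an MDM2 relative that binds p53 and restrains it. Its level was 804 in DMSO 12 h, and in PNU it was 855 at 30 min, 844 at 1 h, 609 at 3 h, 980 at 8 h and 736 at 12 h. It was 520 in nicotine 1 h, 1019 in nicotine 12 h, 1000.02 in MLA 1 h and 887 in MLA 12 h. As for Mdm2, nicotine 1 h and PNU 3 h were lowest, and the interval of PNU 3 h lay apart from the next, PNU 12 h. The range of Mdm4 was 1.96-fold, and 1.38-fold without those libraries. Across the 10 libraries log2 Mdm2 and log2 Mdm4 had a Pearson correlation of 0.91 (Spearman 0.81), and of 0.59 over the 8 libraries without nicotine 1 h and PNU 3 h. All correlations here share the same libraries and size factors, and 586 of 10247 genes compared had a correlation of at least 0.9 with Mdm2.

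**Figure D2:**
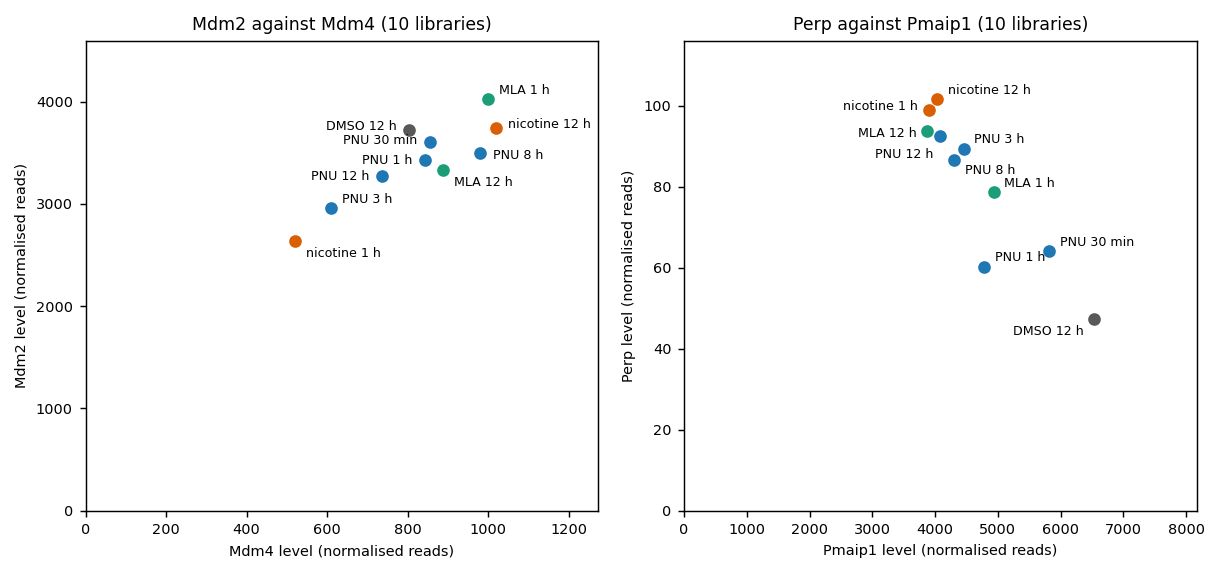
Left, level of Mdm2 (vertical, normalised reads) against level of Mdm4 (horizontal) in the 10 libraries; right, level of Perp against level of Pmaip1. Each point is 1 library; Mdm2 and Mdm4 are both lowest in nicotine 1 h and PNU 3 h, and Perp is lowest where Pmaip1 is highest (DMSO 12 h).

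Among the cell cycle genes, Cdkn1a encodes p21, the inhibitor of cyclin-dependent kinases through which p53 stops the cycle. Its level was 1833 in DMSO 12 h, and in PNU it was 1686 at 30 min, 1825 at 1 h, 2208 at 3 h, 1966 at 8 h and 1853 at 12 h. It was 2247 in nicotine 1 h, 1470 in nicotine 12 h, 1920 in MLA 1 h and 1756 in MLA 12 h. Nicotine held both ends of the range, highest at 1 h and lowest at 12 h, and PNU 3 h lay just under nicotine 1 h. The counting interval of nicotine 12 h lay apart from that of its neighbour PNU 30 min, and that of PNU 3 h from PNU 8 h. The other 7 pairs of neighbours overlapped. With Mdm2, which answers to the same factor, Cdkn1a correlated at -0.68 over 10 and at -0.11 over 8.

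Ccng1 encodes cyclin G1, a p53 target that recruits a phosphatase to MDM2. It ran from 4667 in nicotine 1 h to 6057 in MLA 1 h with a median of 5224, and DMSO 12 h lay at 5748. The same libraries marked the ends for Mdm2, and the correlation between Mdm2 and Ccng1 was 0.82 over 10 libraries and 0.93 over 8. Within the 5 PNU libraries Ccng1 varied 1.08-fold, against a median of 1.27-fold over all genes.

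Sesn1 encodes sestrin 1, which restrains mTORC1 signalling under stress. Its level ran from 300 in nicotine 1 h to 388 in DMSO 12 h with a median of 348. No neighbouring pair of libraries had counting intervals apart, and 2 of the 45 pairs did. The relatives Sesn2 and Sesn3 had ranges of 1.63-fold and 1.52-fold, and of 1.34-fold and 1.37-fold without nicotine 1 h and PNU 3 h. Sesn2 was highest in PNU 3 h (2026) and lowest in nicotine 12 h (1243), and Sesn3 was lowest in PNU 3 h (120) and highest in PNU 30 min (182).

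Among the apoptosis genes, Bax encodes the BCL2 family effector that opens the outer mitochondrial membrane. Its level was 3393 in DMSO 12 h, and in PNU it was 3025 at 30 min, 3169 at 1 h, 3821 at 3 h, 3096 at 8 h and 3772 at 12 h. It was 4054 in nicotine 1 h, 2909 in nicotine 12 h, 3331 in MLA 1 h and 3108 in MLA 12 h. Nicotine 1 h, PNU 3 h and PNU 12 h formed the upper end, and their intervals lay apart from the next library down, DMSO 12 h. As with Cdkn1a, nicotine gave both the highest and the lowest library, and the correlation between the genes was 0.82 over 10 libraries and 0.57 over 8. Bak1, the other main effector, was also highest in nicotine 1 h (1950) and lowest in PNU 30 min (1366).

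Aen encodes an apoptosis-enhancing nuclease. Its level was 668 in DMSO 12 h, and in PNU it was 653 at 30 min, 640.2 at 1 h, 646 at 3 h, 755 at 8 h and 811 at 12 h. It was 869 in nicotine 1 h, 773 in nicotine 12 h, 654 in MLA 1 h and 779.7 in MLA 12 h. Compound libraries of at least 8 h lay above DMSO 12 h, those of 3 h or less with PNU or MLA lay below it, and nicotine 1 h was highest. No neighbouring pair had counting intervals apart.

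Perp encodes a tetraspan membrane protein of desmosomes that p53 and p63 switch on. It had the lowest counts, from 44 reads in DMSO 12 h to 127 in MLA 12 h. Its level was 47.4 in DMSO 12 h (95% interval 34.4 to 63.6), and in PNU it was 64.0 at 30 min, 60.2 at 1 h, 89.3 at 3 h, 86.6 at 8 h and 92.4 at 12 h. It was 98.9 in nicotine 1 h, 101 in nicotine 12 h, 78.6 in MLA 1 h and 93.6 in MLA 12 h. DMSO 12 h, PNU 1 h and PNU 30 min were the lowest libraries, and all others lay at 78.6 or above. No neighbours in this order had intervals apart. Of the 45 pairs of libraries 13 differed at least 1.5-fold, and DMSO 12 h took part in 7 of the 13. Perp correlated with Aen at 0.69 over 10 libraries and 0.80 over 8, and with Sesn1 at -0.78 and -0.83. DMSO 12 h was lowest for Perp and highest for Sesn1, and without it the correlations were 0.76 with Aen and -0.68 with Sesn1. Spearman values over 10 libraries were 0.71 and -0.55.

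**Figure D3:**
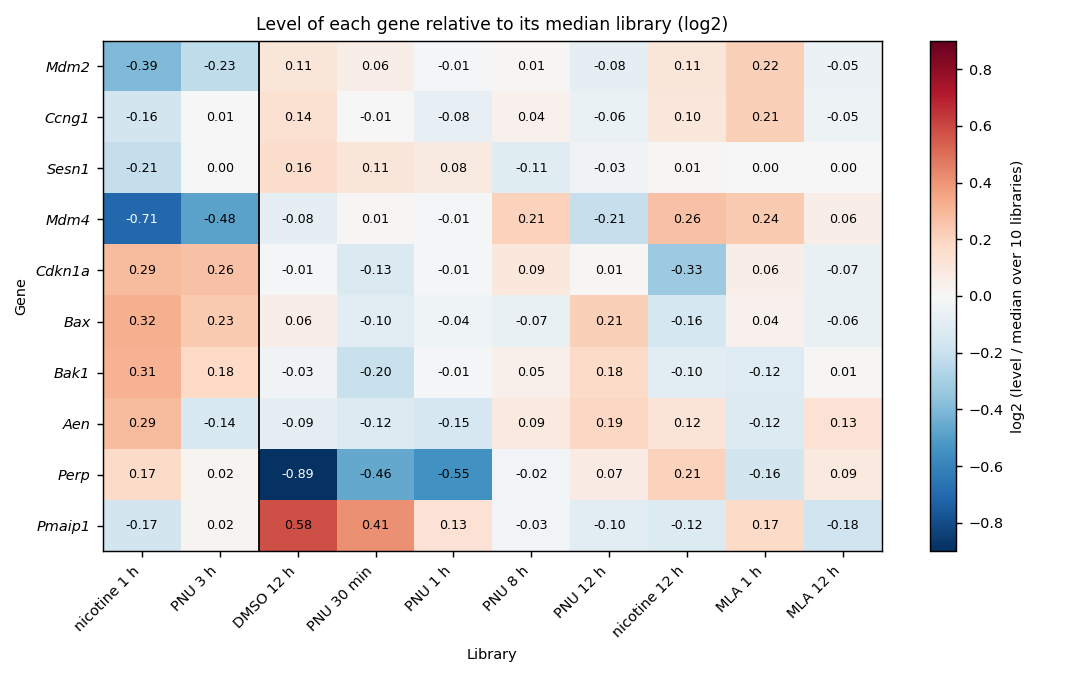
Level of each p53 target and of Mdm4, Bak1 and Pmaip1 in each library, as log2 of the level over the gene's median library (colour and printed value). The vertical line sets off nicotine 1 h and PNU 3 h; Mdm2 and Mdm4 are below their medians in both, Cdkn1a and Bax above, and Perp is lowest in DMSO 12 h at -0.89.

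After 12 h, each compound can be set against DMSO 12 h, a library that the 3 comparisons share. Perp was the 1 gene of the 7 past 1.5-fold in each, and its direction was higher. In PNU it was 1.95-fold higher (log2 0.96, interval 0.45 to 1.5), against 2.78% of all 11167 genes past 1.5-fold in either direction and 1.07% higher. In nicotine it was 2.14-fold higher (log2 1.10, interval 0.58 to 1.64), against 2.42% past 1.5-fold, 1.17% higher, and 0.457% past 2-fold. In MLA it was 1.97-fold higher (log2 0.98, interval 0.48 to 1.51), against 2.15% past 1.5-fold and 1.16% higher. Agonists and negative control thus gave values close to each other, with 92.4, 101 and 93.6 normalised reads, and the intervals of PNU over MLA (-0.40 to 0.36) and PNU over nicotine (-0.53 to 0.26) include 0. The authors' deposited table gave Perp p-values of 0.126 for PNU, 0.0908 for nicotine and 0.106 for MLA, and no gene in any of the tables had an adjusted value below 0.9997. Against PNU 30 min in place of DMSO 12 h, a library also low in Perp, its log2 differences were 0.53, 0.66 and 0.55, of which the first and last are under 1.5-fold.

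The other 6 genes differed less from DMSO 12 h. Aen was higher in the 3 libraries, by log2 0.28 in PNU, 0.21 in nicotine and 0.22 in MLA, with counting intervals away from 0. Mdm2 and Ccng1 were lower in PNU (log2 -0.19 and -0.20) and in MLA (-0.16 and -0.19), while in nicotine their intervals included 0. Cdkn1a and Bax were lower in nicotine (log2 -0.32 and -0.22), and Bax was higher in PNU (0.15) and lower in MLA (-0.13). With PNU 30 min as the reference, Bax stood at log2 0.04 in MLA and -0.06 in nicotine. Ccng1 then stood at -0.05 in PNU and -0.04 in MLA. Bax in PNU (0.32), Cdkn1a in nicotine (-0.20) and Mdm2 in PNU (-0.14) and MLA (-0.11) kept their directions. The median log2 difference of the 7 genes was 0.02 in PNU, -0.03 in nicotine and -0.13 in MLA, beside 0.01, 0.00 and -0.01 for all genes.

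Nicotine 12 h against nicotine 1 h gave the broadest differences, and it rests on the library that stood apart. Cdkn1a was 1.53-fold lower at 12 h (log2 -0.61, interval -0.70 to -0.52), the 1 gene of the 7 past 1.5-fold, against 14.7% of all genes. Mdm2 was higher at 12 h by log2 0.51, and Bax lower with a log2 difference of -0.48. Of the 7 counting intervals 6 lay away from 0, 3 on each side. In MLA 12 h against MLA 1 h 0 of the 7 passed 1.5-fold, against 1.35% of all genes, and Mdm2 and Ccng1 were lower by log2 differences of -0.27 and -0.26. In PNU 12 h against PNU 1 h Perp passed, 1.53-fold higher, against 1.89% of all genes, and Aen was higher by log2 0.34.

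Along the PNU series no step moved a p53 target past 1.5-fold. The count was 0 of 7 from 30 min to 1 h, against 0.582% of all genes, and 0 of 7 from 1 h to 3 h, against 4.79%. It was 0 of 7 from 3 h to 8 h, against 5.02%, and 0 of 7 from 8 h to 12 h, against 3.79%. Perp from 1 h to 3 h came nearest, at 1.48-fold. Over the 5 PNU libraries Perp varied 1.53-fold, Cdkn1a 1.31-fold, Aen 1.27-fold, Bax 1.26-fold, Mdm2 1.22-fold and Sesn1 1.16-fold.

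Between compounds at matched times, PNU and MLA gave 0 of 7 genes past 1.5-fold at 1 h, against 1.22% of all genes, and 0 of 7 at 12 h, against 1.98%. At 12 h 6 of the 7 intervals included 0, a count not made for all genes, and Bax was higher in PNU by log2 0.28 (interval 0.22 to 0.34). For Mdm2 the interval of PNU over MLA at 12 h was -0.09 to 0.03, and for Cdkn1a -0.01 to 0.16. PNU against nicotine at 12 h gave 0 of 7, against 4.2%, with Bax (log2 0.37) and Cdkn1a (0.33) higher in PNU. At 1 h Perp was 1.64-fold lower in PNU than in nicotine, the 1 gene of 7 past 1.5-fold, against 8.69% of all genes. Over the 14 pairs of libraries, 6 of 98 differences of the p53 targets passed 1.5-fold, beside 3.97% of those of all genes. The 1 past 2-fold was that of Perp in nicotine 12 h against DMSO 12 h, where 0.457% of all genes passed. The 6 were all of Perp, except that of Cdkn1a in nicotine 12 h against nicotine 1 h. The pairs overlap, and those with DMSO 12 h share the library in which Perp had 44 reads.

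**Figure D4:**
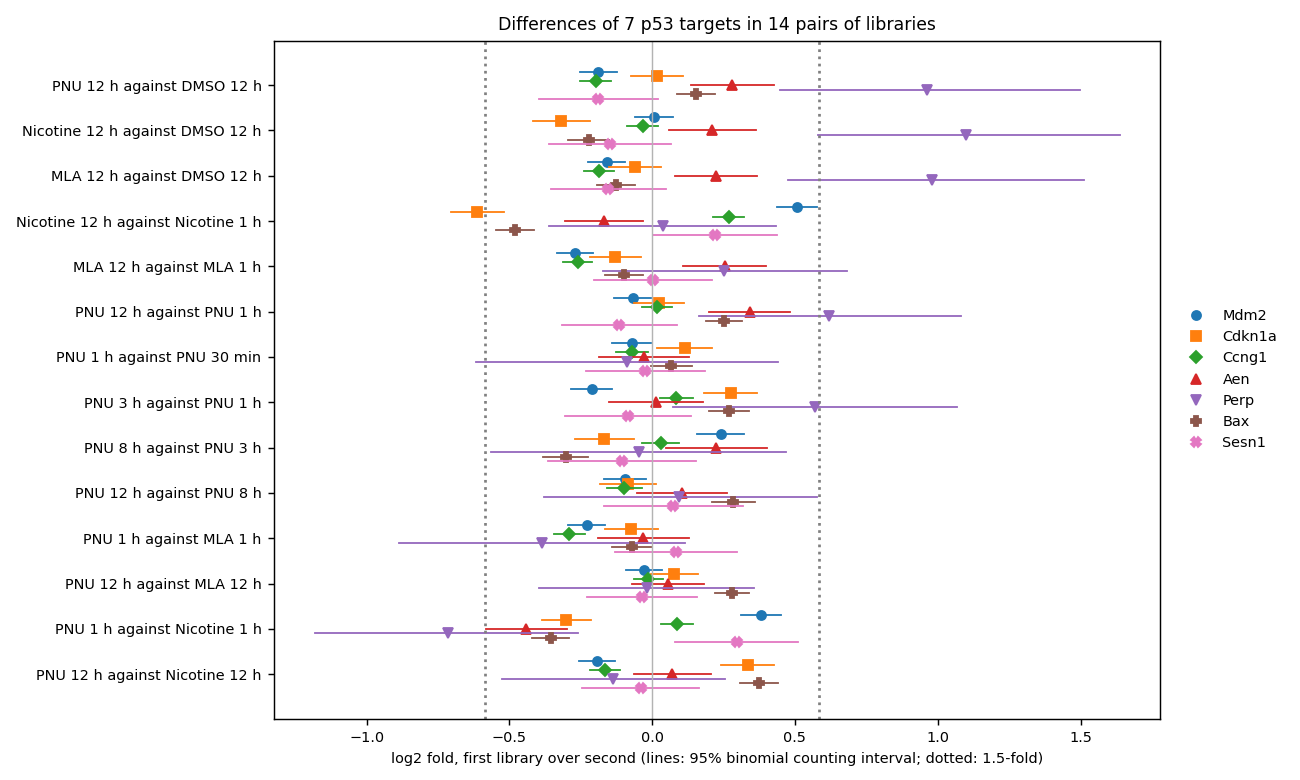
Log2 difference of each listed p53 target in the 14 pairs of libraries (horizontal axis, first library over second), with lines for 95% binomial counting intervals and dotted lines at 1.5-fold. Perp lies beyond the dotted line in the 3 comparisons with DMSO 12 h and Cdkn1a in nicotine 12 h against nicotine 1 h; most other points lie between the lines.

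Other genes of the p53 network were read from lists of symbols. Of 17 symbols for regulators of p53, 14 were listed, and 13 had a mean level of at least 50. Of the 13, 5 had a range of at least 1.5-fold (38.5%, beside 31.9% of all genes) and 0 of at least 2-fold. They were Mdm4, Atm, Atr, the acetyltransferase gene Crebbp and the damage kinase gene Chek2, the last named after its values were seen. The damage kinases Atm (1495 to 2653, 1.77-fold) and Atr (979 to 1628, 1.66-fold) were both lowest in nicotine 1 h and highest in nicotine 12 h. Crebbp was lowest in nicotine 12 h (1723) and highest in PNU 3 h (2847), and Chek2 varied 1.60-fold. Without nicotine 1 h and PNU 3 h the ranges were 1.39-fold for Atm, 1.42-fold for Atr, 1.31-fold for Crebbp and 1.34-fold for Chek2, and 0 of the 13 passed 1.5-fold, beside 15.7% of all genes. Cdkn2a, whose ARF product restrains MDM2, ran from 7372 in PNU 8 h to 9673 in PNU 1 h.

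Of 48 symbols for other p53 targets 39 were listed, and 36 had a mean level of at least 50. Of the 36, 15 had a range of at least 1.5-fold (41.7%, beside 31.9%) and 4 of at least 2-fold (11.1%, beside 5.97%). Without nicotine 1 h and PNU 3 h these were 10 of 36 (27.8%, beside 15.7%) and 1 of 36 (2.78%, beside 2.04%). Tp53inp1, an autophagy and stress protein, ran from 24.5 in nicotine 1 h to 81.5 in PNU 1 h, and its 3.33-fold range was 1.68-fold without nicotine 1 h and PNU 3 h. Rrm2b, a ribonucleotide reductase subunit, was also lowest in nicotine 1 h (45.4), and Zmat3, an RNA-binding protein, was lowest in PNU 3 h (82.4). Their ranges were 2.24-fold and 2.21-fold, and 1.59-fold and 1.70-fold without those libraries. Tp53inp1 and Rrm2b lay under a level of 50 in nicotine 1 h. Counting error limits these low levels, and no counting interval is given for Tp53inp1, Rrm2b and Zmat3. Btg2, an antiproliferative gene, was highest in DMSO 12 h (4768) and lowest in nicotine 12 h (2168), a 2.20-fold range that was as large without nicotine 1 h and PNU 3 h. Gadd45a, a growth arrest and damage gene, varied 1.26-fold.

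Against DMSO 12 h, more genes of this list were lower than higher at 1.5-fold. In PNU 0 of 36 were higher and 4 lower, in nicotine 1 higher and 4 lower, and in MLA 0 higher and 4 lower. Chosen after their values were seen, the 4 lower genes were Pmaip1, Btg2, Plk2 and Plk3 in each, and the higher gene was the death receptor Fas, at 225 in nicotine 12 h and 131 in DMSO 12 h. The 3 comparisons share DMSO 12 h, the library in which Btg2, Pmaip1, Plk3 and the polo-like kinase gene Plk2 were highest of all 10. Plk2 stood at 12616 in DMSO 12 h, 6560 in PNU, 7235 in nicotine and 6454 in MLA at 12 h, and Plk3, a related kinase gene, at 1140, 747, 627 and 741. The shares of all genes past 1.5-fold were 1.07% higher and 1.7% lower in PNU, 1.17% and 1.26% in nicotine, and 1.16% and 0.992% in MLA. The list's median log2 differences, in the same order, were -0.04, -0.06 and -0.01.

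Pmaip1, which encodes the apoptosis activator NOXA, was the gene with the lowest correlation to Perp among the 10247 compared. Its level was 6536 in DMSO 12 h, 5823, 4784, 4455, 4304 and 4086 in PNU from 30 min to 12 h, 3904 and 4031 in nicotine, and 4932 and 3874 in MLA at 1 h and 12 h. Perp thus tended to be high where Pmaip1, also a p53 target, was low. The correlation was -0.92 over 10 libraries and -0.85 over the 9 without DMSO 12 h. Their orders were not exact opposites, since Pmaip1 was lowest in MLA 12 h and Perp highest in nicotine 12 h. As Pmaip1 was the lowest of the 10247, a strongly negative value follows from the pick. The genes most like Perp were Slc14a1 (0.98), a urea transporter, Nqo1 (0.92), a quinone reductase, and Ugt1a7c (0.91), a glucuronosyltransferase, and 3 genes in all reached 0.9.

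The 3 nearest genes to each of the other p53 targets, out of 10247 compared, were not on the p53 lists. Those lists hold few of the 10247 genes, so this says little about the targets. The nearest were Gnpnat1, Fam76b and Mcm8 for Mdm2, Trim11, Arid5a and Clptm1 for Cdkn1a, and Suco, Serp1 and Smndc1 for Ccng1. For Sesn1 they were Narf, Oaz2 and Rab7b, for Bax Amdhd2, Aup1 and Lmo1, and for Aen Kctd13, Hpdl and Rab44. The opposite ends were RT1-A1 for Mdm2, Anpep for Ccng1, Rcl1 for Sesn1, Fndc3a for Bax and Fgfr2 for Aen. At least 0.9 was reached by 184 genes with Bax and by 65 with Cdkn1a.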

How the data were processed

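PolyA RNA libraries of RPE-J cells, 1 per condition, were sequenced. Per the submitters' processing notes the tools were Trimmomatic 0.36, STAR 2.5.2b, featureCounts of Subread 1.5.2 and DESeq2. The genome build, gene annotation and strandedness were not given in the sources used here. Each of the 39 tables the authors deposited covers 1 pair of libraries and per the file headers holds a log2 fold change, a p-value and a level for each library. The deposited level is a signal that behaves as reads divided by a size factor set per table.

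Division by the value of 1 read returned whole numbers, to a tolerance of 0.01, for 100% of values. These reads were scaled over all 10 libraries by the median of ratios (Python 3.11.15, numpy 2.4.6, pandas 2.3.3, scipy 1.17.1) and tested on simulated data. No count model was run. A read number was recovered in every library for 13391 genes. Intervals are at 95% and cover counting error. Differences were counted past 1.5-fold and 2-fold at a mean level of at least 50. Named genes were all p53 targets of the rule, the 3 most and 1 least correlated with each, and up to 4 per list with the largest range. The genes and lists were chosen with earlier results of these data known. Alternatives were other scalings, level filters, reference libraries, libraries left out and the authors' own fold changes. Some genes are not reported here and were left out of the lists.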

Additional observations from a re-analysis of the deposited data

Results flagged for a closer look

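From 1 h to 12 h, Mdm2, Bax, Ccng1 and Aen moved in opposite directions with different compounds, each by a difference whose counting interval lay away from 0. With 1 library per condition the differences between compounds were not tested. For Mdm2 the log2 difference of 12 h over 1 h was 0.51 in nicotine, -0.27 in MLA and -0.07 in PNU. For Bax it was -0.48 in nicotine, -0.1 in MLA and 0.25 in PNU. For Ccng1 it was 0.27 in nicotine and -0.26 in MLA. For Aen it was -0.17 in nicotine, 0.25 in MLA and 0.34 in PNU. The nicotine values rest on nicotine 1 h, the library that stood apart, and its part in them was not tested.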

How the results depend on the processing

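With PNU 30 min as the reference in place of DMSO 12 h, the count of p53 targets past 1.5-fold went from 1 to 0 in PNU 12 h and from 1 to 0 in MLA 12 h, because Perp was also low in PNU 30 min. The other 55 recomputed counts did not move by over 1.5 times. Of the recomputed log2 differences 292 stayed within their counting intervals, and the 9 that moved (Cdkn1a, Ccng1 and Bax) were those against PNU 30 min. Signs changed in 3 of 21 differences with that reference, in 3 of 98 when levels were taken relative to the reads in listed genes, and in 0 of 98 with upper quartile scaling. Leaving out nicotine 1 h and PNU 3 h together, chosen after seeing the data, moved the ranges of Mdm2, Cdkn1a, Ccng1 and Bax, and genes past 1.5-fold in range went from 3 to 1 of 7. Without DMSO 12 h the range of Perp was 1.69-fold in place of 2.14-fold. No paired analysis was possible because each condition has 1 library. Perp, with 44 to 127 reads, is limited by counting, and genes listed in no table were not analysed here.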

Other observations

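Gene groups around the p53 targets were read in the same way. Of 14 BCL2 family symbols 11 were listed and 9 had a mean level of at least 50, of which 3 had a range of at least 1.5-fold (33.3%, beside 31.9% of all genes), and 2 (22.2%, beside 15.7%) without nicotine 1 h and PNU 3 h. Bmf, a pro-apoptotic member, was lowest in DMSO 12 h (126) and highest in MLA 12 h (231), a 1.84-fold range, and the survival gene Bcl2l1 ran from 931 in nicotine 12 h to 1405 in PNU 3 h, a range of 1.51-fold, or 1.21-fold without those libraries. Bok varied 1.43-fold, and 1.26-fold without them. Of 15 listed genes for cyclins, their kinases and inhibitors, 5 had a range of at least 1.5-fold (33.3%, beside 31.9%), and 2 (13.3%, beside 15.7%) without nicotine 1 h and PNU 3 h. The G1 cyclin gene Ccnd1 was highest in nicotine 1 h (1045) and lowest in MLA 1 h (563), and Ccne2 was lowest in nicotine 1 h (1741) and highest in MLA 1 h (2921). Without nicotine 1 h and PNU 3 h their ranges were 1.39-fold and 1.44-fold, from 1.86-fold and 1.68-fold. Cdkn2b, an inhibitor of the G1 kinases, was highest in DMSO 12 h (5732), and Ccnd2 was lowest there (42.0).

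Of 9 listed genes for sestrins and the GATOR complexes through which they act, 2 had a range of at least 1.5-fold (22.2%, beside 31.9%), Sesn2 and Sesn3, and 0 without nicotine 1 h and PNU 3 h. Nprl3 and Wdr59 varied 1.47-fold and 1.44-fold, and 1.37-fold and 1.21-fold without them. Desmosomes are the structures that hold PERP. Of 14 symbols for desmosome and epithelial junction genes 9 were listed, and 5 had a mean level of at least 50. Pkp2, Dsg2, Dsg3, Dsc3 and Cdh1 were not listed. Jup (2581 to 5173), Dsp (2106 to 3385), Ppl (963 to 1391) and Pkp1 (4482 to 6065) were highest in PNU 3 h, and Pkp4 (554 to 747) in nicotine 1 h. Jup and Dsp were lowest in nicotine 12 h, the library with the most Perp, and Ppl, Pkp1 and Pkp4 in DMSO 12 h, the library with the least. Without nicotine 1 h and PNU 3 h their ranges were 1.41-fold, 1.32-fold, 1.31-fold, 1.28-fold and 1.19-fold, so that 0 of the 5 passed 1.5-fold, where 2 (Jup and Dsp) had with all libraries (40.0%, beside 31.9%).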
